A study of Homo sapiens with 24 samples.

Results

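The comparison described is that of 6 cultures treated with IL-4+IL-13 against 6 cultures given vehicle, 12 of the 24 libraries of the series. Libraries were chosen by their treatment label, and each treated library was set against the vehicle library of the same batch label, 1 to 6. All were sensory neuron cultures made from the human embryonic stem cell line H9 (spelled H9WAO9 in the labels), an established line, through vagal neural crest spheroids. Treated cultures received IL-4 at 10 ng/ml with IL-13 at 3 ng/ml for 5 days, and vehicle cultures the same volume of PBS with 0.1% bovine serum albumin. Every library thus came from 1 cell line, and no genotype differed between the groups. The other 12 libraries of the same batches had received TGF-β (2 ng/ml) or IL-6, whose dose and time the labels do not give. RNA of whole cultures was sequenced, so a level below is that of all cells in the dish, and fewer cells of a type and less RNA per cell cannot be told apart.

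IL-4 and IL-13 are the cytokines of type 2 inflammation, made mainly by T helper cells and innate lymphoid cells. Both act through a receptor of the IL-4 receptor α chain with the IL-13 receptor α1 chain, and IL-4 also through the α chain with the common γ chain. The bound receptor activates Janus kinases, which phosphorylate the transcription factor STAT6, and STAT dimers bind DNA at palindromes of the form TTCNNNGAA, with STAT6 also binding TTCNNNNGAA. Sensory neurons of airway and skin are known to carry these receptors.

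Libraries held 33663195 to 39817784 counted reads in these 2 groups. Of 28701 entries tested, 72 (0.251%) met both limits of a call (adjusted p below 0.05, fold change above 2-fold either way), with 49 (0.171%) higher and 23 (0.0801%) lower under IL-4+IL-13. At any fold size 65 (0.226%) were higher and 28 (0.0976%) lower, and the median log2 fold change of all entries was 0.00 (-0.00078). Of the called entries, 12 were loci without a gene name, and the remaining 60 stood for 59 gene symbols. The study names 28 of these symbols in its text or tables, and 31 (16 higher, 15 lower) it does not; the description below is weighted towards those 31. Here and below, a normalized count is a count scaled to the mean effective library size, levels are given as the lowest, the median and the highest of 6 libraries, and a change is a log2 fold change ± standard error with its adjusted p from edgeR's quasi-likelihood test.

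The batch labels did not pair all libraries equally well. After the group mean was taken from each entry, the deviations of the treated library followed those of the vehicle library of its own batch in batches 1, 3, 5 and 6 (correlations across 20985 entries of 0.677, 0.589, 0.325 and 0.602), more than those of any other vehicle library. In batch 2 the correlation was 0.108 within the batch against 0.450 with the vehicle library of batch 4, and in batch 4 it was -0.05 within the batch against 0.535 with that of batch 3. With batches 2 and 4 left out together, 70 entries were called, 50 of them among the 72. The fit of all batches without the batch term called 9 entries, of which 0 were among the 31 genes the study does not name. Omitting batch 1, 2, 3, 4, 5 or 6 left 28, 81, 27, 66, 20 or 22 called entries, and 8, 22, 9, 20, 7 or 6 of those 31 genes. A fit of the 12 libraries alone called 25 entries, 9 of the 31 among them, and DESeq2 called 170, with all 31 among them.

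Promoters of some called genes held STAT palindromes. Both forms were searched in RefSeq's windows from 250 bases before to 50 after each start site (GRCh38.p14, 35116 windows of 300 bases); either pattern reads alike on both strands, and overlapping matches were each counted. A window held TTCNNNGAA in 7.66%, TTCNNNNGAA in 6.44%, either in 13.5% and at least 2 in 1.32% of all windows. Of the called genes, 31 of those that rose and 12 of those that fell had a window; 10 of the 31 and 1 of the 12 held a match, and 6 of the 31 and 0 of the 12 held at least 2. Counted likewise per gene, over any of its windows, a match was held by 14.7% and at least 2 by 1.28% of the 14111 genes tested that had a window. The windows with at least 2 matches among the rising genes the study does not name are shown first, with capitals marking the matches. Those of CISH and CSN1S1 follow, both picked from the genes that held matches. CCL26, SMR3B and SLC26A4, whose rises were larger than that of CISH, had a window without a match. CAPN14 has 2 matches to TTCNNNNGAA (chr2:31217466-31217765, minus strand), which begin 180 and 120 bases before the start site of that window. This start site lies inside the CAPN14 gene (chr2:31173056-31233957) and is not its outermost one. ATP13A5 has 1 of each form (chr3:193378704-193379003, minus strand) and PMCH 2 of TTCNNNGAA (chr12:102197784-102198083, minus strand). CISH has 4 of TTCNNNGAA (chr3:50611725-50612024, minus strand) and CSN1S1 2 of TTCNNNGAA and 1 of TTCNNNNGAA (chr4:69930818-69931117, plus strand).
CAPN14: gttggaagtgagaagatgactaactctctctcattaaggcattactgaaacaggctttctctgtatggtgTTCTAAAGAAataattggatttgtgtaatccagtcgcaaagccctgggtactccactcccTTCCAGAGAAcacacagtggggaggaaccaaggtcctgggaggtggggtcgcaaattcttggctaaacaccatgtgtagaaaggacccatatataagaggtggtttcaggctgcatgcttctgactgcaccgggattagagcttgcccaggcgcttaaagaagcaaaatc
ATP13A5: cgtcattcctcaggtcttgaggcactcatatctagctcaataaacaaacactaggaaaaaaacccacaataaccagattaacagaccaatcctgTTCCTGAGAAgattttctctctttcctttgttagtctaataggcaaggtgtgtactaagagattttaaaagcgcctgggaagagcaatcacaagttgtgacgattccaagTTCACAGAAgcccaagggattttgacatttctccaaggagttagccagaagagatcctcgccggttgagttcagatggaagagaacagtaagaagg
PMCH: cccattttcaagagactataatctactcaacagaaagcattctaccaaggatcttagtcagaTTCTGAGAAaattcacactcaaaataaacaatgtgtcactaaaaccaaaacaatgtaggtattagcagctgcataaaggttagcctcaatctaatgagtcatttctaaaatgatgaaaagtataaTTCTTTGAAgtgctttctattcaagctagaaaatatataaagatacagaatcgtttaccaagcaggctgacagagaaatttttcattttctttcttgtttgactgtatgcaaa
CISH: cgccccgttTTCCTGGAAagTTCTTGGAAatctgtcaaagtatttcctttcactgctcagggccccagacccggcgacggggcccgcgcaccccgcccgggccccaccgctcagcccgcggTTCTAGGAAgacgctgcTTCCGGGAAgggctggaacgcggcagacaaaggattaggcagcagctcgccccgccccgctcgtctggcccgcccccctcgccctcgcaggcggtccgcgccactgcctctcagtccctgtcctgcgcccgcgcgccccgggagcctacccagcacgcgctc
CSN1S1: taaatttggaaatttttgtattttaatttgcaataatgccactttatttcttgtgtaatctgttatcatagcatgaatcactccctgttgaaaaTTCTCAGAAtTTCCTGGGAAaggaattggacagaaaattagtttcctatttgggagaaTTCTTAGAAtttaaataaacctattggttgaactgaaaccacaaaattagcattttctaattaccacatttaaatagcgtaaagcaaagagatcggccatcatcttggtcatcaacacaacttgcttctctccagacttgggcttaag

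A match says only that these letters are in the window. Called genes the study does not name and that were not matched in the table included GPC3, TMEM92, LOXL2, KRT7, ABCB5 and MFAP5.

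Of 4 receptor subunits 1 rose. IL13RA2, the decoy receptor that binds IL-13 with high affinity, had 791, 1471 and 9564 normalized counts in vehicle and 2488, 3794 and 14290.0 under IL-4+IL-13. Each treated library exceeded the vehicle library of its batch, though the groups overlapped. The rise was 1.30 ± 0.19 (adjusted p = 0.00989), and it passed in 4 of the 6 fits that left out a batch. IL4R, the shared α chain, had 879.7, 1426 and 3303 against 557, 1349.8 and 1578 normalized counts, a difference of -0.38 ± 0.24 (adjusted p = 0.772). IL13RA1, the partner chain, differed by -0.27 ± 0.11 (adjusted p = 0.603), and IL2RG, the common γ chain, was close to detection with at most 9.79 normalized counts in any treated library. For both IL4R and IL13RA1 the treated library was lower in 5 of 6 batches, with batch 4 the exception. JAK1, JAK2, JAK3, TYK2 and STAT6, the kinases and the transcription factor, differed by between -0.25 (JAK1) and -0.04 (JAK2), with adjusted p from 0.75 (STAT6) to 0.969 (JAK2). Of 11 JAK and STAT genes, 0 passed the test (edgeR; 1 at an unadjusted p under 0.05, and 0 by DESeq2). CISH, the STAT-induced feedback inhibitor, rose from 28.4, 49 and 68.5 to 406, 993 and 1225 normalized counts, with no overlap, by 4.36 ± 0.41 (adjusted p = 0.00046), and was the 1 of 15 feedback inhibitors that passed.

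Among the genes the study names, the 5 largest called rises were those of CSN1S1, ALOX15, CCL26, SERPINB11 and SMR3B. ALOX15, a lipoxygenase that oxygenates arachidonic and linoleic acid, went from 0, 7.17 and 19.2 to 4518, 15027 and 15546 normalized counts, a rise of 10.61 ± 0.51 (adjusted p = 7.78e-07). CCL26, the eosinophil attractant eotaxin-3, rose by 7.83 ± 0.52 (adjusted p = 1.72e-05), SERPINB11 by 5.42 ± 0.55 (adjusted p = 0.000579) and SMR3B, a salivary peptide precursor, by 5.19 ± 0.49 (adjusted p = 0.00046). CSN1S1, the casein αS1 gene, had 0 counts in all 6 vehicle libraries and 4.83, 197 and 733 normalized counts under treatment. Its median treated level was at least 67.9-fold higher than a floor of 3 counts in a library (adjusted p = 0.0201). All 5 genes had groups that did not overlap. The lowest treated library for CSN1S1, at 4.83 normalized counts, was that of batch 2, and CSN1S1 passed in 2 of the 6 fits that left out a batch. The largest called falls among the genes the study names were those of TNFSF10, the death ligand TRAIL (-2.18 ± 0.41, adjusted p = 0.0468), ITGA11, a collagen-binding integrin (-1.59 ± 0.23, adjusted p = 0.00878) and R3HDML (-1.24 ± 0.20, adjusted p = 0.0144), which passed in 1, 4 and 2 of the 6 omissions of a batch.

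Among genes the study does not name, 15 rises met the naming rule (mean count of at least 10 and a higher value in all 6 batches). Several belonged to genes with known ties to epithelial type 2 responses. Of 20 measured mucin and secretory epithelium genes, however, 0 passed by edgeR or DESeq2 (0 higher and 2 lower at an unadjusted p under 0.05). These 20 together summed to only 352 to 710 normalized counts in vehicle and 353 to 804 under treatment, so changes could be missed. IL1RL1, which encodes the IL-33 receptor ST2 (chr2:102311563-102352356), had 0, 0 and 8.27 normalized counts in vehicle and 2.9, 24.9 and 54.3 under IL-4+IL-13. It was at 0 in most vehicle libraries and above 0 in every treated one, and the groups overlapped at their edges. The fitted rise was 4.15 ± 0.62 (adjusted p = 0.00974), at a mean of 13.9 counts. IL33, the gene of its ligand, was lower in 6 of 6 batches without passing (-0.96, adjusted p = 0.548). DUOX2, a dual oxidase that makes hydrogen peroxide at epithelial surfaces (chr15:45092650-45114172), had 4.05, 10.2 and 15.8 against 18.3, 70.2 and 109.7 normalized counts. All treated libraries lay above all vehicle libraries, and the lowest treated one was that of batch 2. DUOX2 rose by 2.67 ± 0.40 (adjusted p = 0.00976). CAPN14, a calpain protease of squamous epithelium (chr2:31173056-31233957), had 15.5, 23.3 and 30.8 against 35.7, 67.5 and 100.3 normalized counts, again without overlap. Its rise was 1.56 ± 0.26 (adjusted p = 0.0198). GJB2, the gap junction protein connexin 26 (chr13:20187470-20192938), had 52.7, 117 and 331 normalized counts in vehicle and 188, 384 and 783 under treatment. The groups overlapped, and the gain was smallest in batches 4 (0.41) and 5 (0.56) and largest in batch 1 (2.95). It rose by 1.67 ± 0.29 (adjusted p = 0.0254).

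PMCH, the precursor of the neuropeptide melanin-concentrating hormone (chr12:102196459-102197833), had 88.5, 207 and 1559.7 normalized counts in vehicle and 753, 1081 and 5455 in treated cultures. The highest vehicle library exceeded the treated median, yet every treated library was above its own batch's vehicle library, by log2 ratios of 1.49 (batch 6) to 3.65 (batch 4). The rise was 2.33 ± 0.23 (adjusted p = 0.000579). PMCH overlaps the end of PARPBP (chr12:102120183-102197520), which encodes a binding partner of PARP1 and itself rose by 1.19 ± 0.21 (adjusted p = 0.0254). With the strand of the libraries not given, reads from the shared stretch may belong to either. NEUROG1, the transcription factor that starts sensory neurogenesis (chr5:135534282-135535964), had 0, 6.79 and 22 against 11.7, 21.1 and 80.4 normalized counts. It rose by 2.07 ± 0.38 (adjusted p = 0.0399), with the largest ratio in batch 3 (3.67), and passed the test in 0 of the 6 fits that left out a batch. SP5, a zinc finger gene known as a WNT target (chr2:170715337-170718078), had 11.4, 22.2 and 28.2 against 39.5, 67.4 and 149 normalized counts, with no overlap. SP5 rose by 1.78 ± 0.34 (adjusted p = 0.0425), and was the 1 of 22 WNT antagonists and feedback targets that passed (2 higher and 1 lower by DESeq2). SP5 passed in 2 of the 6 omissions of a batch.

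ALPK2, an alpha-kinase (chr18:58481247-58629091), had 1936, 3055 and 8499.7 against 6908, 7954 and 13162 normalized counts. The highest vehicle library lay above the treated median, and the within-batch ratio was smallest in batch 1 (0.63). The rise was 1.36 ± 0.17 (adjusted p = 0.00214). TMEM235 (chr17:78231293-78240987) went from 6.78, 19.3 and 40.5 to 26.1, 61.7 and 128 normalized counts, with within-batch ratios of 1.37 (batch 5) to 2.14 (batch 1). It rose by 1.79 ± 0.21 (adjusted p = 0.00154). CDC20B (chr5:55112971-55173177), whose introns hold the MIR449 genes of multiciliated cells, had 53.3, 128 and 354 against 185, 398 and 1360.2 normalized counts and a rise of 1.90 ± 0.28 (adjusted p = 0.0101). Ratios of CDC20B were alike in all batches, from 1.56 to 2.25, although its level varied several-fold between vehicle cultures. E2F7, an atypical E2F repressor of the cell cycle (chr12:77021251-77065569), rose from 157, 179 and 663 to 340.2, 501 and 1348 normalized counts, by 1.27 ± 0.20 (adjusted p = 0.016).

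Smaller rises were those of GPC3, a glypican of the cell surface (chrX:133535745-133985594; 1.08 ± 0.19, adjusted p = 0.0326), ATP13A5, a P5-type ATPase (chr3:193274789-193378753; 1.03 ± 0.17, adjusted p = 0.0182), and LIMA1, an actin-binding LIM protein (chr12:50175788-50283520; 1.02 ± 0.17, adjusted p = 0.0181). CDC20B overlaps GPX8, SP5 overlaps ERICH2-DT, and ALPK2, GPC3 and ATP13A5 each overlap an antisense gene, so reads there may be shared. For each of GPC3, ATP13A5 and LIMA1, batch 4 gave the largest ratio (1.63, 1.66 and 1.75). PFKP, the platelet-type phosphofructokinase of glycolysis, was the remaining called rise and fell outside the rule because its ratio in batch 2 was -0.03; it is named after its values were seen (1.13 ± 0.19, adjusted p = 0.0196). Of the 15 rises, 3 (PMCH, TMEM235 and ALPK2) stayed called whichever batch was left out. The other 12 lost the call in at least 1 omission, with a highest adjusted p between 0.0898 (CDC20B) and 0.233 (NEUROG1). Without batch 1, 2, 3, 4, 5 or 6, calls were kept by 4, 12, 6, 10, 4 or 3 of the 15. CAPN14, GPC3 and ATP13A5 were each called in 1 of the 6 omissions, and NEUROG1 in 0.

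**Figure D1:**
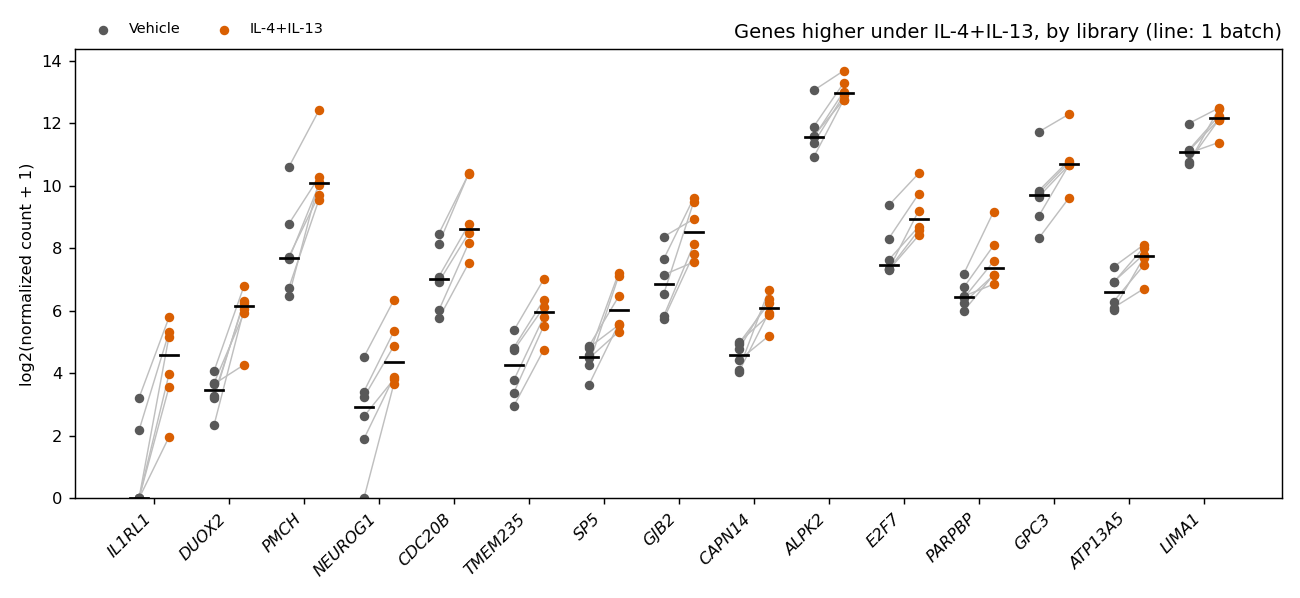
Level of the 15 rising genes as log2(normalized count + 1), with vehicle libraries in grey, IL-4+IL-13 libraries in orange, a line joining the 2 libraries of each batch and a bar at each group's median. All lines run upward, and the groups are apart for DUOX2, SP5 and CAPN14.

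Falls that the study does not name numbered 15, all lower in 6 of 6 batches, and 9 of the 10 largest are described here. TMEM92 (chr17:50271406-50281485) had 40.5, 115 and 589 normalized counts in vehicle and 9.16, 31.2 and 53.2 in treated cultures. The groups overlapped between the lowest vehicle and the highest treated library, and the drop was steepest in batches 1 (-3.98) and 2 (-3.60). TMEM92 fell by 2.41 ± 0.38 (adjusted p = 0.016). ABCB5, an ATP-binding cassette transporter (chr7:20615667-20757008), went from 133, 197 and 584 to 27, 55.9 and 140.4 normalized counts and fell by 1.81 ± 0.21 (adjusted p = 0.00154). KRT7, a keratin of simple epithelia (chr12:52233243-52255853), had 459, 879 and 4148 against 162, 322 and 769.7 normalized counts. It fell by 1.57 ± 0.19 (adjusted p = 0.00171), within batches from -0.79 (batch 4) to -2.43 (batch 1). KRT7 overlaps the antisense gene KRT7-AS, and reads of the pair could not be separated. EDN2, the vasoconstrictor endothelin 2 (chr1:41478775-41484683), fell by 1.52 ± 0.29 (adjusted p = 0.042) and ADGRL4, an adhesion receptor of endothelium (chr1:78889764-79006730), by 1.43 ± 0.28 (adjusted p = 0.0475).

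SERPINA3, the acute-phase inhibitor α1-antichymotrypsin (chr14:94612391-94624053), had 7632, 14131 and 101094 against 2412, 6906 and 43359.6 normalized counts and fell by 1.21 ± 0.17 (adjusted p = 0.00803). MFAP5, a glycoprotein of elastic microfibrils (chr12:8645943-8662826), had 28.3, 52.4 and 93.5 against 5.03, 19.7 and 30.5 normalized counts. Its ratios ran from -0.29 in batch 4 to -3.07 in batch 5, and the fall was 1.69 ± 0.30 (adjusted p = 0.0264). C5orf46 (chr5:147885885-147906538) fell by 1.36 ± 0.23 (adjusted p = 0.0232) and SLC23A3, of the ascorbate transporter family (chr2:219161465-219170029), by 1.31 ± 0.21 (adjusted p = 0.0162) at a mean of 18.6 counts.

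Other called falls, named after their values were seen, were LOXL2, which cross-links collagen (-1.11 ± 0.20, adjusted p = 0.0365), MALL (-1.18 ± 0.23, adjusted p = 0.0498), DTWD2, a tRNA-modifying enzyme (-1.15 ± 0.12, adjusted p = 0.000700) and ANKRD1, a stretch-responsive nuclear protein (-1.08 ± 0.21, adjusted p = 0.0476). LOXL2 alone of the 15 falls had groups that did not overlap (1514, 2220.4 and 4146 against 876, 1127 and 1367 normalized counts). Of the 10 falls named by rule, ABCB5 and KRT7 stayed called in every omission of a batch, as did DTWD2. For the other 8 the highest adjusted p lay between 0.0952 and 0.227 (EDN2), and without batch 1, 2, 3, 4, 5 or 6 calls were kept by 3, 7, 2, 6, 2 or 2 of the 10. EDN2 and SLC23A3 passed in 0 of the 6 omissions, and ADGRL4, MFAP5 and C5orf46 in 1. Counting rises and falls, 4 of the 31 genes had groups without overlap, against 0.314% of the 21005 entries with a mean count of at least 10. A higher value in all 6 batches was seen in 3.05% and a lower one in 1.94% of those entries.

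**Figure D2:**
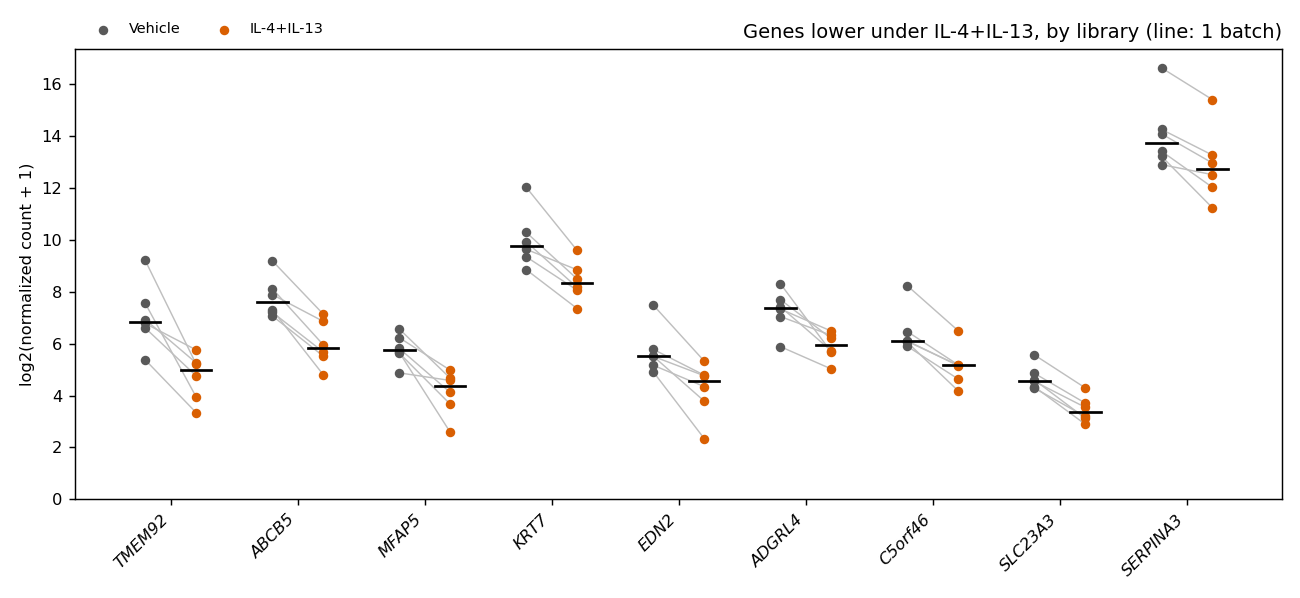
Level of 9 of the 10 genes with the largest falls as log2(normalized count + 1), drawn as for the rising genes (vehicle grey, IL-4+IL-13 orange, line for 1 batch, bar for the median). All lines run downward, and at least 1 vehicle library of each gene lies within the range of the treated libraries.

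Another 21 genes, none of them named by the study, passed the test with less than a 2-fold change, 16 higher and 5 lower; they are named after their values were seen. CYP1B1, a cytochrome P450 of steroid and hydrocarbon oxidation, was the firmest of them, with 3016, 4449 and 5483 against 4022, 6959.5 and 10619 normalized counts. It rose by 0.69 ± 0.08 (adjusted p = 0.000857), at ratios of 0.41 to 0.95, and passed in all 6 omissions of a batch. Signalling and apoptosis genes that rose were MALT1, the paracaspase of NF-κB signalling (0.64 ± 0.09), ITPKB, an inositol trisphosphate kinase (0.67 ± 0.13), ARRB2, β-arrestin 2 (0.36 ± 0.07), APAF1, the scaffold of the apoptosome (0.45 ± 0.07) and PKD2, the calcium-permeable channel polycystin 2 (0.65 ± 0.09). CPA4, a carboxypeptidase, rose by 0.90 ± 0.13 and ADAMTS10, a microfibril-associated metalloproteinase, by 0.45 ± 0.09. NNMT, which methylates nicotinamide, rose by 0.58 ± 0.10. Other rises were STK32B (0.91 ± 0.18), SPATA18 (0.67 ± 0.12), PABIR2 (0.55 ± 0.08), FJX1 (0.52 ± 0.10), NDFIP2 (0.36 ± 0.07) and PSMD10 (0.28 ± 0.05). Among the falls, XYLT1 (-0.81 ± 0.14) and NDST1 (-0.30 ± 0.06) are enzymes that build and sulfate the sugar chains of proteoglycans, ST6GALNAC3 (-0.35 ± 0.06) is a sialyltransferase and VGLL3 (-0.79 ± 0.14) a cofactor of TEAD factors; GASK1B changed by -0.95 ± 0.18. NDST1, ST6GALNAC3 and APAF1 had groups that did not overlap. Adjusted p over the 21 ran from 0.000857 (CYP1B1) to 0.0491 (PSMD10), and every one but CYP1B1 missed the threshold in at least 1 omission of a batch.

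Gene lists gave the response by function, beside 0.226% of all entries higher and 0.0976% lower at an adjusted p under 0.05, and 3.92% higher and 3.55% lower at an unadjusted p under 0.05. In all, 24 of the 1033 listed genes measured passed. Genes known as IL-4 or IL-13 targets in other cell types were the list with the most members past the test, 6 of 32 higher and 0 lower, with a median of 0.59. They were ALOX15, CCL26, CISH, IL13RA2, SLC26A4, the anion exchanger pendrin (4.74 ± 0.53, adjusted p = 0.00113), and SERPINB4, a squamous cell serpin (3.01 ± 0.48, adjusted p = 0.016), whose ratio in batch 2 was -0.004 and which passed in 1 of 6 omissions. Past the test were 5 members without batch 1, 10 without batch 2, and 10 by DESeq2 (0 of these lower). VCAM1 (1.90, adjusted p = 0.0527), SERPINB3 (2.64, adjusted p = 0.0624) and TNC (1.22, adjusted p = 0.104), 3 other targets, were higher in 6 of 6 batches without passing. Several of these genes are ones the study picked from the same libraries, so the count is not independent evidence of direction. In other lists the members that passed were few. Of 21 serpins 2 rose (SERPINB11 and SERPINB4) and 2 fell, SERPINA3 among them, with a median of -0.06 (5 higher and 3 lower by DESeq2).

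Of 43 collagens 2 rose and 0 fell, with a median of -0.10; DESeq2 called 2 higher and 4 lower. COL14A1, a fibril-associated collagen, rose by 2.60 ± 0.39 (adjusted p = 0.0115) and COL6A1, of the beaded microfibrils, by 1.32 ± 0.15 (adjusted p = 0.00137), with ratios in batch 2 of 0.22 and 0.30. COL14A1 passed in 1 and COL6A1 in all 6 omissions of a batch. Another 12 collagens were lower at an unadjusted p under 0.05, among them COL4A1 (-0.54, adjusted p = 0.184) and COL11A1 (-0.88, adjusted p = 0.107). Of 50 matrix glycoproteins and proteoglycans 0 rose and 1 (MFAP5) fell, with a median of -0.24 (3 higher and 5 lower by DESeq2); MFAP5 passed in 1 of 6 omissions. Of 40 metalloproteinases and inhibitors 2 rose (MMP28 by 2.43 ± 0.24 and ADAMTS10) and 0 fell, with a median of -0.19 (3 higher and 2 lower by DESeq2). MMP28 was listed in 2 entries, and the second also rose (2.61). CD44, the hyaluronan receptor, rose by 1.69 ± 0.17 (adjusted p = 0.000599), and MME, the peptide-degrading enzyme neprilysin, by 4.25 ± 0.55 (adjusted p = 0.00606).

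Neuronal lists held few calls. Of 18 neurotrophin and GDNF family genes 2 rose, among them NTF3, neurotrophin 3 (1.14 ± 0.19, adjusted p = 0.0182). NTF3 had 23.3, 47.8 and 109 normalized counts in vehicle and 66.1, 89.2 and 239 under treatment. Of 71 potassium channels 1 rose, KCNJ2, an inward rectifier (1.36 ± 0.22, adjusted p = 0.0177), and 0 fell, with 2 higher and 0 lower by DESeq2. KCNJ2 passed in 1 of 6 omissions (highest adjusted p = 0.171), and NTF3 in 2. None of 13 sodium channels, 18 calcium channels, 35 synaptic vesicle genes or 21 pan-neuronal genes passed (0 in edgeR, 0 at an unadjusted p under 0.05 and 0 by DESeq2), with medians of -0.11, -0.13, -0.12 and 0.01. The sign of these medians changed with the batches used: without batch 1 the medians were -0.31, -0.21, -0.26 and -0.15, without batch 2 0.08, 0.02, 0.08 and 0.11, and with batches 2 and 4 both left out 0.07, 0.0058, 0.0040 and 0.12. RAMP1, a subunit of the CGRP receptor, was higher in 6 of 6 batches without passing (1.02, adjusted p = 0.0645), and of 25 sensory neuropeptides and granins 0 passed by edgeR or DESeq2, with 3 lower at an unadjusted p under 0.05.

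Proliferation genes had positive values and no calls. All 23 had a positive log2 fold change, from 0.19 (BUB1B) to 1.40 (BIRC5), with a median of 0.88, yet 0 passed the test (edgeR; 6 at an unadjusted p under 0.05 and 2 by DESeq2). The median within-batch ratio of the list was 1.37, 2.63, 0.56, -1.04, 0.98 and 0.93 in batches 1 to 6, so that batch 4 ran opposite to the others and batch 2 was highest. MKI67, the marker of cycling cells, differed by 1.09 (adjusted p = 0.704), and RRM2, the ribonucleotide reductase subunit, was the 1 member higher in 6 of 6 batches (1.13, adjusted p = 0.316). E2F7, described above, had a ratio of 1.25 in batch 4 and 1.87 in batch 2, and PARPBP ratios of 0.38 and 1.35. With batches 2 and 4 left out the list median was 1.05, with 0 members past the test.

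**Figure D3:**
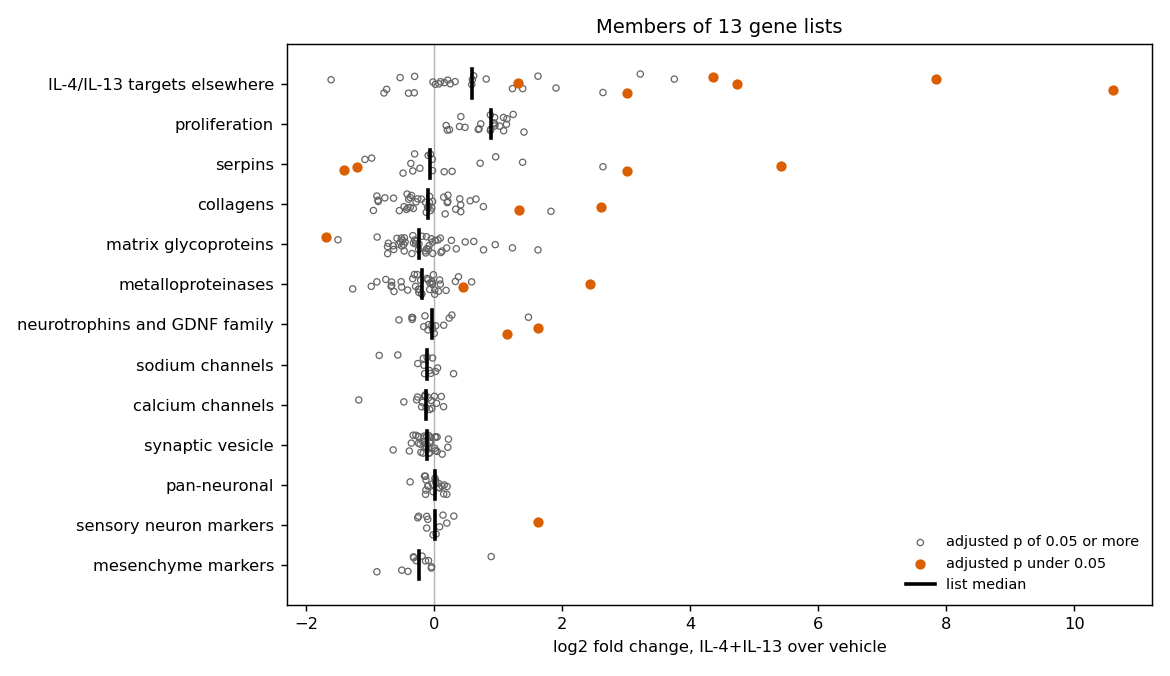
Log2 fold change (IL-4+IL-13 over vehicle) of each measured member of 13 gene lists, with members at an adjusted p under 0.05 filled and the list median as a bar. Targets of IL-4 and IL-13 known elsewhere spread far to the right (median 0.59), all proliferation genes lie above 0 without passing, and few members of the other lists are filled.

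The cultures carried their labelled type and others beside it. All 12 sensory neuron markers were detected in every library, TRPV1, the capsaicin receptor, at 354 to 439 normalized counts in vehicle and 377 to 470.3 under treatment. Their summed level was 47685 to 177326 in vehicle and 76898 to 172352 under treatment, and 1 of the 12 passed. STMN2, TUBB3 and UCHL1 had the largest vehicle medians in it (55205, 28119 and 21390). The study treats TUBB3 and UCHL1 as pan-neuronal markers, so this sum does not measure sensory identity by itself. The 12 fibroblast and mesenchyme markers summed to 134257 to 456518 and 123735 to 286832, with 0 passing (edgeR; 1 at an unadjusted p under 0.05, 0 by DESeq2); MEOX2 was the 1 marker at 0 in a library. Log2 ratios of that sum in batches 1 to 6 were -1.16, -1.29, -0.28, 0.29, -0.14 and -0.12. The matrix genes COL1A2, COL1A1 and FN1 had the largest vehicle medians in it (101317, 97000 and 54603). The median ratio of the 12 markers was -0.32, -1.56, 0.07, 0.75, -0.09 and -0.05. The 19 called falls had median ratios of -1.74, -1.71, -1.28, -0.74, -1.51 and -1.09 in the same batches. Of 13 epithelial markers 1 (KRT7) fell and CDH1, E-cadherin, was lower in 6 of 6 batches without passing (-1.82, adjusted p = 0.0649), while KRT5, a basal keratin, was higher in 6 of 6 without passing (2.52, adjusted p = 0.529), at a few counts. By DESeq2 0 rose and 2 fell. Their sum was 11429 to 40105 in vehicle and 8608 to 22448 under treatment, and KRT5, ESRP1 and TP63 were each at 0 in at least 1 library (ESRP1 in all treated ones). Of 10 endothelial markers 0 passed (0 at an unadjusted p under 0.05 and 0 by DESeq2), with sums of 1520.1 to 5104 and 3024 to 6955. What part the mix of cells had in the changes above was not tested.

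The batch with the smallest change was not the same for rises and for falls. Of the 41 called rises among named entries, 20 had their smallest change in batch 2, where their median ratio was 1.35 against 1.73 to 2.35 in the other batches. Of the 19 called falls, 13 had their smallest change in batch 4, at a median of -0.74. TNFAIP6, a hyaluronan-binding protein, gave the clearest case of the first, with ratios of -0.004 in batch 2 and 2.64 to 4.72 elsewhere, and LOXL2 and MFAP5 of the second (-0.15 and -0.29 in batch 4). Among the 31 genes the study does not name the same minimum was less marked for rises, 6 of 16 in batch 2, and was held by 9 of 15 falls in batch 4. In these 2 batches the treated library resembled the vehicle library of another batch more than its own.

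**Figure D4:**
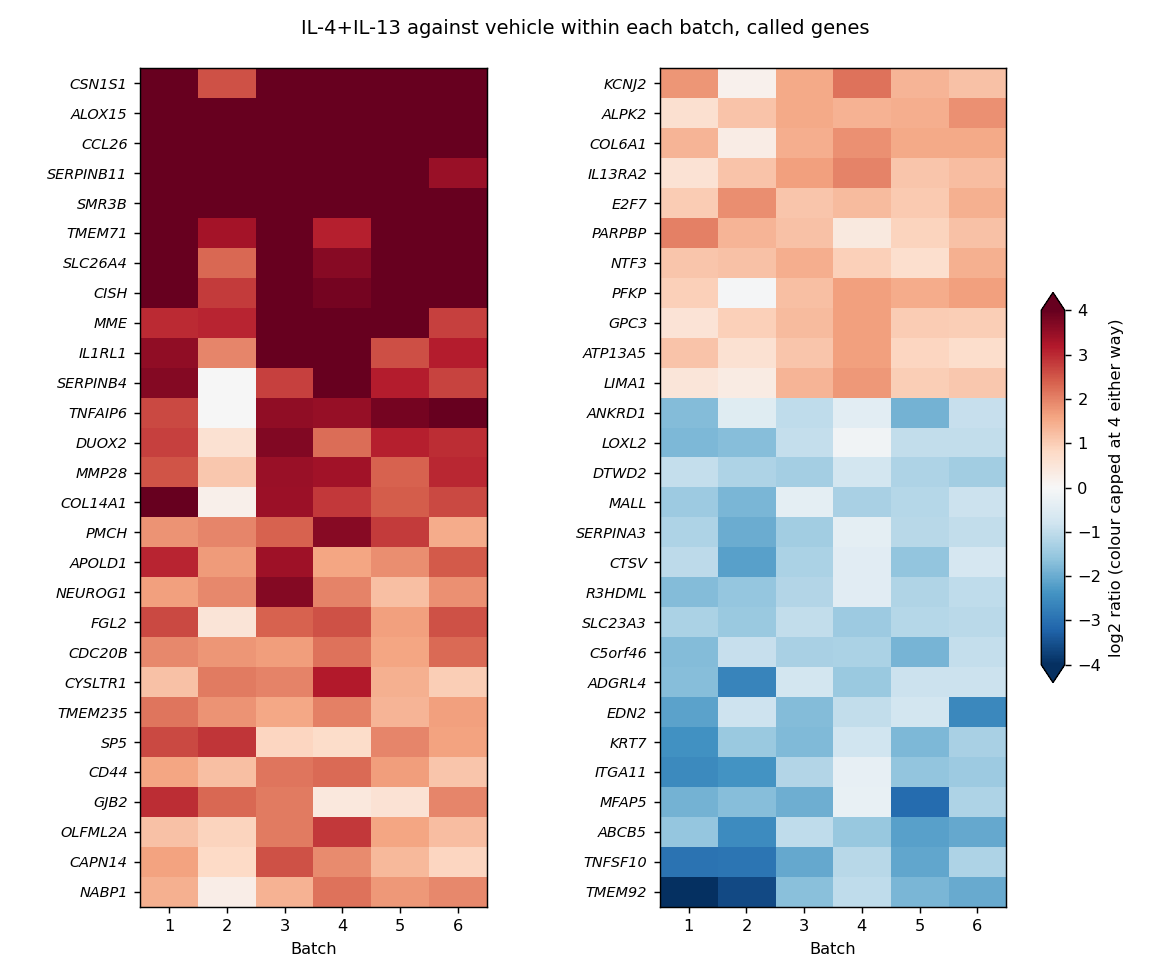
Log2 ratio of IL-4+IL-13 to vehicle within each of the 6 batches (columns) for 56 of the 59 called gene symbols (rows, in order of fold change; red higher, blue lower, colour capped at 4). Batch 2 is pale for TNFAIP6, SERPINB4, COL14A1 and PFKP among the rises, and batch 4 for LOXL2 and MFAP5 among the falls.

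The same genes were read under the other 2 treatments, whose comparisons with vehicle share the vehicle libraries. IL-4+IL-13, TGF-β and IL-6 gave log2 fold changes over vehicle of 2.67, -0.29 and -0.23 for DUOX2, 2.33, 0.86 and -0.12 for PMCH, 1.79, -0.10 and -0.17 for TMEM235 and -1.57, 0.09 and -0.03 for KRT7. Values for ABCB5 were -1.81, -1.60 and -0.70, the TGF-β fall passing as well (adjusted p = 0.0193), and for DTWD2 -1.15, -0.77 and -0.63 (TGF-β, adjusted p = 0.0471). The direct comparison of treatments is the test of a difference, though the 31 genes were chosen with the same treated libraries. Against TGF-β, 25 of the 31 differed in the direction of their change (14 rises, 11 falls), where 1.83% of all entries passed in either direction. ABCB5, DTWD2, MALL, NEUROG1, PARPBP and SLC23A3 did not pass. Against IL-6, 19 of the 31 differed (11 rises, 8 falls), where 0.456% of all entries passed. ABCB5, ADGRL4, CDC20B, DTWD2, EDN2, GJB2, IL1RL1, LOXL2, MALL, NEUROG1, PARPBP and SLC23A3 did not pass against IL-6. Among these, IL1RL1 was higher than under IL-6 by 3.15 (adjusted p = 0.0837) and GJB2 by 0.92 (adjusted p = 0.225). PMCH was higher than under TGF-β by 1.47 (adjusted p = 0.00455) and than under IL-6 by 2.44 (adjusted p = 2.62e-06). For KRT7 the difference from TGF-β was -1.65 (adjusted p = 0.000805) and that from IL-6 -1.55 (adjusted p = 0.000105). NEUROG1 stood at 2.07, 1.28 and 1.87, and its difference from IL-6 was 0.14.

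**Figure D5:**
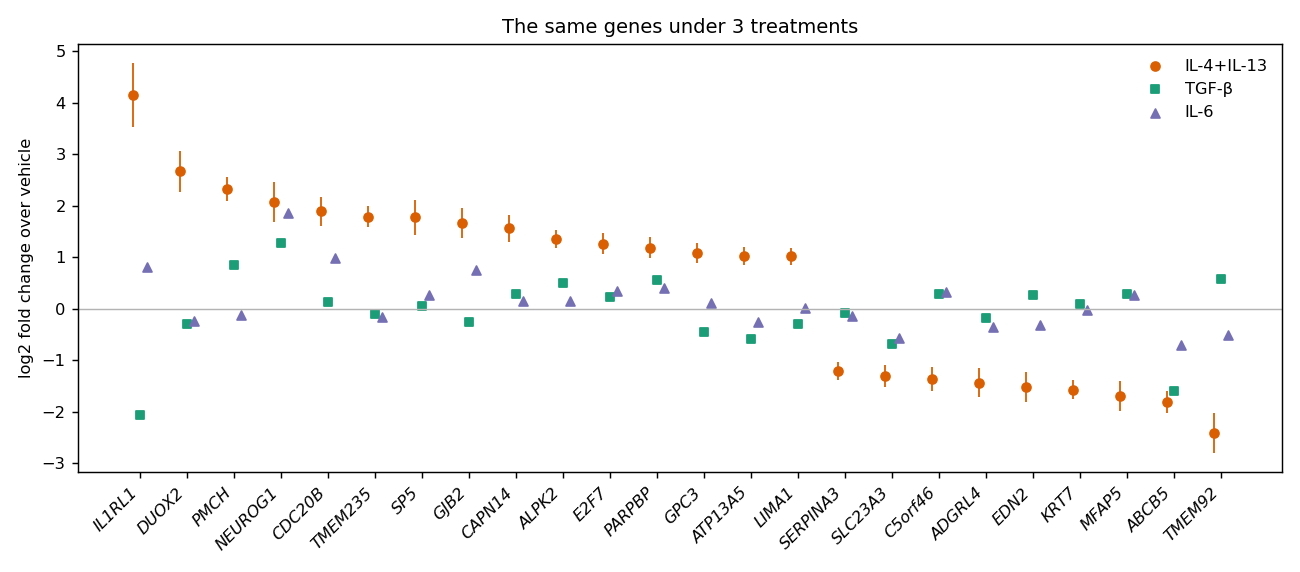
Log2 fold change over vehicle of the 15 rising and 9 falling genes under IL-4+IL-13 (circles with standard error), TGF-β (squares) and IL-6 (triangles), all against the same vehicle libraries. NEUROG1 and ABCB5 are the genes where another treatment comes closest to IL-4+IL-13.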

How the data were processed

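RNA-seq counts per gene were used as deposited. The authors trimmed reads with Trimmomatic 0.30 and aligned them to GRCh38.p14 (per the labels, which call it a mouse reference although the cells are human); the aligner, the counting tool and strandedness are not given in the sources used here. No column was left unmapped. Entries with a total count of at least 10 were kept, scaled by TMM, and fitted with edgeR 4.0.16 (quasi-likelihood, robust) in R 4.3.3, with batch as a block because the study's methods pair samples; the labels give the batch. A fit of 18 libraries (all but those given IL-6) gave the spread, and a fit of all 24 the comparison with IL-6. P-values were adjusted by Benjamini-Hochberg over all entries. Within-batch ratios were taken on normalized counts plus 1. The study describes batches as separate differentiations of the 1 line. With batch as a block, p-values measure how far treatment differences varied from differentiation to differentiation, over all libraries fitted. They do not measure the spread of levels between differentiations, nor that between lines or donors.

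The pairing was checked by correlating deviations from the group means: a library matched its own batch best in batches 1, 3, 5 and 6. Genes not named by the study were described if called, listed once, at a mean count of at least 10 and of 1 direction in 6 batches (18 largest rises at most, 10 largest falls); up to 4 members per list with an adjusted p under 0.05, 5 rises and 3 falls the study names, and the receptor and JAK/STAT6 genes were added. Members and lists were chosen with earlier results of these data known. Alternatives were DESeq2 1.42.0, other scalings, filters and sets of libraries, no block, and omission of each batch. Unnamed loci were tested but not described, mitochondrially encoded genes were not analysed here, and the tests were tried on simulated data. The simulated counts had no batch effect and the same spread for all genes, so they do not bear on the pairing by batch. Some genes that met the rule are counted but not reported here by name.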

Additional observations from a re-analysis of the deposited data

Results flagged for a closer look

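In 4 of 89 entries examined, 1 batch stood far from the other 5 by its gap to the nearest value relative to the whole range; chance gives such a gap in about 1 in 20 groups. NEUROG1 had a log2 ratio to vehicle of 3.67 in batch 3, against 1.19 to 1.98 in the other batches. COL6A1 had 0.305 in batch 2, against 1.35 to 1.83. NDST1 had -0.124 in batch 4, against -0.386 to -0.295. STK32B had -0.226 in batch 2, against 0.903 to 1.56. Outside the named genes, 12 loci without a gene name were called against vehicle, 8 higher and 4 lower.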

How the results depend on the processing

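The counts of calls moved with the settings, and not all of the 89 named entries kept their direction in every setting. JAK2, which did not pass, had a log2 fold change of -0.04 in the main fit. Without batch 2 it was 0.04, without batch 3 0.01, and with batches 2 and 4 both left out 0.05. Against vehicle, 72 entries were called, with 65 higher and 28 lower at any fold size. With all 24 libraries in the fit these were 109, 109 and 77, with the 12 compared libraries alone 25, 24 and 3, and by DESeq2 170, 217 and 170. Without the replicate block they were 9, 9 and 0. Omitting 1 batch at a time gave 20 to 81 called, 17 to 103 higher and 3 to 44 lower. Against TGF-β, 257 entries were called, and 23 without the block, 444 by DESeq2 and 84 to 315 with a batch omitted. Against IL-6, 82 were called, and 13 without the block, 255 by DESeq2 and 52 to 109 with a batch omitted. Of the listed genes 24 passed, and 41 with 24 libraries, 7 without the block, 11 with 12 libraries, 67 by DESeq2 and 10 to 32 with a batch omitted. The cause was not tested, though the fit of 12 libraries and the omissions hold fewer samples. The fit of batches 1, 3, 5 and 6 alone and the other settings for listed genes were chosen after seeing the data. For the 89 named entries the side of the threshold held in 962 of the comparisons with another setting and was lost in 456.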
